A study of Mus musculus with 6 samples.

Results

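The small exchangeable apolipoproteins are secreted proteins that sit on the surface of lipoprotein particles and can move from one particle to another. The 10 genes described here (Apoa1, Apoa2, Apoa4, Apoa5, Apoc1, Apoc2, Apoc3, Apoc4, Apoe and Apom) were chosen by gene symbol from the 15565 genes of the deposited count table, and all 10 passed the expression filter that left 13288 genes for testing. Livers of 3 C57BL/6 mice, aged 2 months, were perfused with collagenase, the hepatocytes, which secrete lipoproteins, were sorted, and messenger RNA of the TERT(High) and the TERT(Low) population of every mouse was sequenced, which gave 3 libraries a group. All mice had the genotype Tert(CreERT2/+); R26(LSL-Tomato/+), so TERT(High) and TERT(Low) cells alike carried CreERT2, whose recombinase activity tamoxifen switches on, inserted at one allele of Tert, and a Tomato reporter that this recombinase unlocks at one allele of R26. Tert codes for the reverse transcriptase of telomerase. The labels do not give the sorting gate, and both groups carry the engineered allele of Tert. The question of the comparison is how the RNAs of hepatocytes that express much Tert differ from those of hepatocytes that express little.

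Lipoproteins carry triglyceride and cholesterol through the blood, and their surface proteins decide which enzymes and receptors act on them. APOA1 and APOA2 form the scaffold of high-density lipoprotein (HDL), the C apolipoproteins and APOA5 tune the breakdown of triglyceride by lipoprotein lipase, and APOE is the ligand through which the liver takes up remnant particles. The liver makes most of these proteins, and in the mouse the genes lie largely in a pair of clusters. Apoe, Apoc1, Apoc4 and Apoc2 stand together on chromosome 7, and Apoa1, Apoc3, Apoa4 and Apoa5 stand together on chromosome 9. Apoa2 on chromosome 1 and Apom on chromosome 17 stand alone.

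RNA of 7 of the 10 genes was lower in TERT(High) hepatocytes of all 3 mice, namely Apoc4, Apoc2, Apoa2, Apoc1, Apoc3, Apoa1 and Apom, while Apoa4, Apoe and Apoa5 differed in direction between mice. In edgeR's quasi-likelihood test (Benjamini-Hochberg adjustment over all genes, threshold 0.05) Apoc4, Apoc2 and Apoa2 fell and none of the 10 rose (0 also at an unadjusted p under 0.05 and by DESeq2). Of all genes tested 3.71% fell and 4.43% rose by that rule, 8.14% together. These calls rest on all 6 libraries: edgeR called 1081 genes in all, 1650 without the TERT(High) library of mouse 1, and 0 without any 1 of the other 5 libraries, where DESeq2 called 1623 to 2268 and 1295 to 1507 genes were lower at an unadjusted edgeR p under 0.05. DESeq2 called 7 of the 10 lower, against 9.77% of all genes, and the same 7 had an unadjusted edgeR p under 0.05, against 12.4% of all genes, and an adjusted one under 0.10, against 8.56%. In those 7 every TERT(High) library lay below every TERT(Low) library, a separation found downwards for 15.9% of all genes tested, and 26.6% of all genes were lower in all 3 mice. The median log2 fold change (TERT(High) over TERT(Low), negative where TERT(High) is lower) was -0.57 over the 10 genes and -0.01 over all genes tested. Among tested genes of the shortest transcript length decile, which holds 8 of the 10 (below), that median was -0.55, and 22.9% fell. Within mice 1, 2 and 3 the median over the 10 genes was -0.53, -0.64 and -0.56, and over all genes -0.06, 0.01 and 0.08. With library totals in place of TMM the median over all genes was 0.14, that over the 10 was -0.42, and 1 of the 10 (Apoc4) passed.

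**Figure D1:**
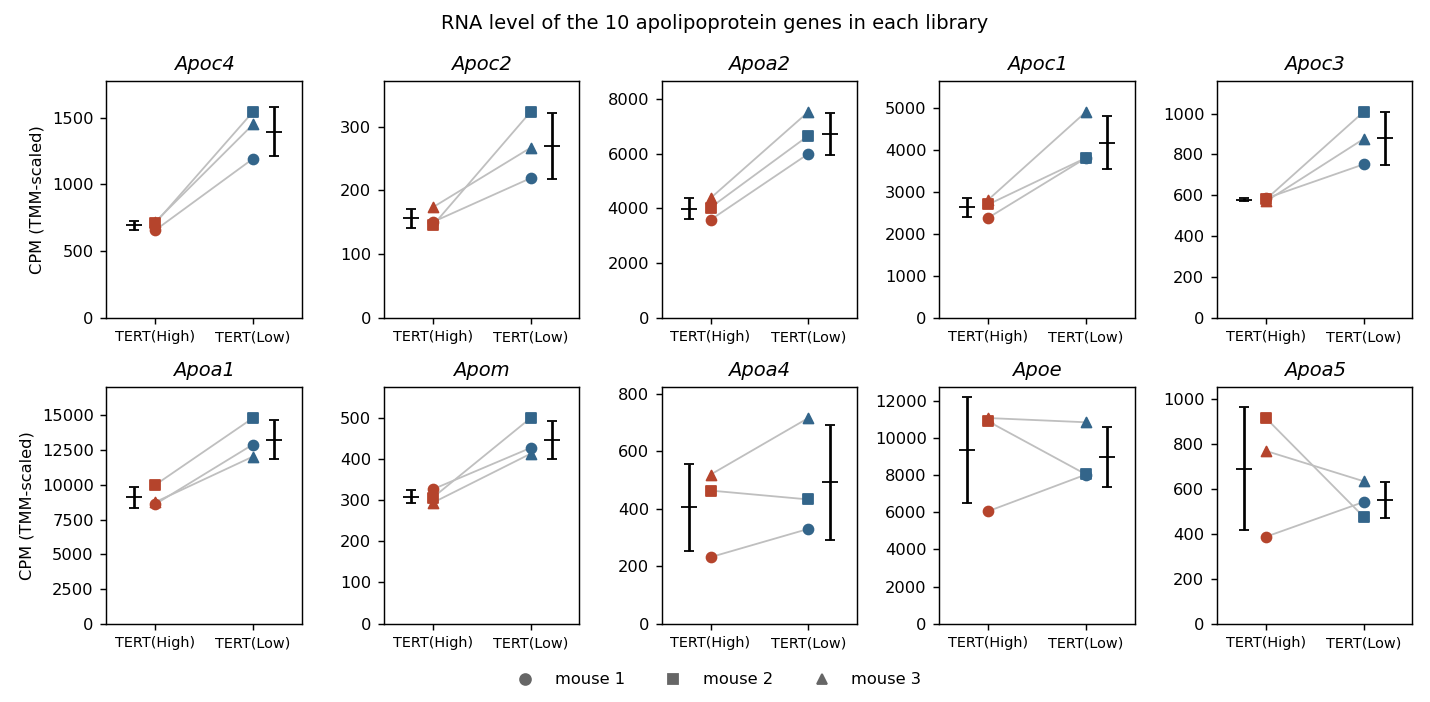
RNA level of each gene (y axis, CPM: counts per 1e6 counts after TMM scaling of library size) in TERT(High) cells (left, red) and TERT(Low) cells (right, blue) of mice 1 to 3, with grey lines joining the libraries of a mouse and bars giving mean ± SD (n = 3). In 7 panels every TERT(High) point lies below every TERT(Low) point, and in the panels of Apoa4, Apoe and Apoa5 the groups overlap.

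Library totals were 54.1, 64.1 and 53.6 (1e6 counts) for the TERT(High) libraries of mice 1, 2 and 3, against 76.2, 56.0 and 55.4 for the TERT(Low) libraries. Hepatocyte markers summed to 105198 to 119676 CPM in TERT(High) libraries and 93677 to 113444 CPM in TERT(Low) libraries (7 of 8 listed genes in the table). Most of that sum was Alb, at 78801 to 90335 CPM in TERT(High) and 51578 to 75570 CPM in TERT(Low) libraries (edgeR adjusted p = 0.240). Of the 7 hepatocyte genes Asgr1, a subunit of the asialoglycoprotein receptor, fell (log2 fold change -0.71, edgeR adjusted p = 0.0485), Ttr was at -0.69 (adjusted p = 0.0792), 2 lay wholly below in TERT(High) libraries and 1 wholly above. Markers of other cells were far lower in both groups, in summed CPM. The 11 macrophage genes had 20.8 to 114 in TERT(High) and 17.7 to 53.9 in TERT(Low) libraries. The 8 endothelial genes had 28.1 to 50.8 in TERT(High) and 20.2 to 23.2 in TERT(Low) libraries, ranges that do not overlap. Of these 8, Kdr and Lyve1 rose (edgeR adjusted p = 0.0277 and 0.0452), against 4.43% of all genes. By DESeq2 4 were higher, and 6 at an unadjusted edgeR p under 0.05. In TERT(High) libraries 6 lay wholly above, against 17.5% of all genes. The list median log2 fold change was 1.17, and Clec4g was at -0.08. The part of macrophage and endothelial RNA in the results was not tested. Neutrophil markers (7 of 8 in the table) had 4.87 to 12.0 in TERT(High) and 4.73 to 11.4 in TERT(Low) libraries, sums that Cxcr2 dominates in TERT(Low) libraries. Cxcr2 had 2.68 to 4.31 CPM in TERT(High) and 4.52 to 10.4 CPM in TERT(Low) libraries, while 4 of the 6 tested neutrophil genes lay wholly above in TERT(High) libraries, against 17.5% of all genes, with a list median log2 fold change of 2.69 (0 called by edgeR, 4 higher at an unadjusted p under 0.05, 1 by DESeq2). The part of neutrophil RNA in the results was not tested. Cholangiocyte markers (3 of 6) had 2.05 to 11.7 in TERT(High) and 2.13 to 3.26 in TERT(Low) libraries. The 6 erythroid genes summed to 17.5 to 207 CPM in TERT(High) libraries and 39.9 to 61.0 CPM in TERT(Low) libraries, and 5 of 8 lymphocyte genes to at most 0.601 CPM in TERT(High) libraries and 0.531 CPM in TERT(Low) libraries. The 9 stellate genes reached 247 CPM in the TERT(High) library of mouse 1, nearly all of it Col1a1 and Col1a2, against 4.58 to 13.7 CPM in the other libraries. The erythroid sum of 207 CPM and the cholangiocyte sum of 11.7 CPM, mostly Spp1, come from that library too. In such bulk samples fewer cells of a type and less RNA per cell cannot be told apart. The p-values treat the 6 libraries as independent although pairs share a mouse.

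Levels per transcript length order the 10 genes by abundance. In TERT(High) cells the mean levels were 8804 CPM per kb for Apoa1, 8274 for Apoe, 8113 for Apoa2 and 6075 for Apoc1, then 1290.5 for Apoc4, 815 for Apoc3, 305 for Apom, 299 for Apoa5, 248 for Apoc2 and 223 for Apoa4. The first 3 lie within 1 SD of each other (SD 736 for Apoa1, 2521 for Apoe and 809 for Apoa2), as do Apom and Apoa5 (SD 16.3 and 118), and Apoa5, Apoc2 and Apoa4 (SD 118, 24.0 and 84.0). In TERT(Low) cells Apoa2 had the highest mean level, 13672 CPM per kb (SD 1566), followed by Apoa1 with 12799 (SD 1371), Apoc1 with 9645 (SD 1466) and Apoe with 7947 (SD 1437). Apoc4 then had 2595 CPM per kb, Apoc3 1239, Apom 440.2, Apoc2 428, Apoa4 272 and Apoa5 238. By these means Apoe came after Apoa1 alone in TERT(High) cells, and after Apoa2, Apoa1 and Apoc1 in TERT(Low) cells. Together the 10 genes took 2.60%, 2.90% and 3.27% of all counts in TERT(High) libraries of mice 1, 2 and 3, against 3.29%, 3.52% and 3.78% in TERT(Low) libraries. The share was lower in the TERT(High) library of each mouse, and the group ranges nearly meet.

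Apoc4 had the largest decrease of the 10. This gene encodes a small, sparsely studied C apolipoprotein of triglyceride-rich particles (chromosome 7, 19678084 to 19681460, mm10). Its level was 656, 709 and 718 CPM in TERT(High) cells of mice 1, 2 and 3, against 1193, 1545 and 1451 CPM in TERT(Low) cells. The groups were far apart and the TERT(High) libraries lay close together, with a coefficient of variation of 4.84% against 13.1% in TERT(Low) libraries. The log2 fold change was -1.01 (SE 0.16, 95% interval -1.39 to -0.63, edgeR adjusted p = 0.0277), a fold of 0.497. With the TERT(High) library of mouse 1 left out it still passed (adjusted p = 0.0285), and with any 1 of the other 5 left out the adjusted p lay between 0.0879 and 0.148 and the log2 fold change between -1.11 and -0.92.

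Apoc2, the cofactor that lipoprotein lipase needs to cleave triglyceride, lies next to Apoc4 (chromosome 7, 19671579 to 19677941). TERT(High) libraries had 150.4, 145 and 173 CPM, and TERT(Low) libraries 219, 324 and 267 CPM. The groups did not overlap, and the gap was narrowest in mouse 1. The log2 fold change was -0.79 (SE 0.18, 95% interval -1.23 to -0.35), and its edgeR adjusted p of 0.0498 lies just inside the threshold. With the mouse as a block it was 0.0519, and without any 1 library it lay between 0.0589 and 0.161. A further gene model of the table, Gm44805 (chromosome 7, 19671579 to 19681460), spans Apoc2 and Apoc4 whole. Its counts were 0.608, 0.611 and 0.626 of the summed Apoc4 and Apoc2 counts in TERT(High) libraries and 0.592, 0.589 and 0.598 in TERT(Low) libraries, and it fell as well (log2 fold change -0.92, SE 0.16, edgeR adjusted p = 0.0310). Reads of the 3 models cannot be told apart here, and the division of the decrease between Apoc4 and Apoc2 is uncertain.

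The upstream windows of the genes that fell, and of Apoe and Apoa5 for contrast, are given from RefSeq (GRCm38.p6, 5′ to 3′), each limited to the stretch of the 250 bases before a transcript start that overlaps no annotated exon. Capitals mark, on either strand, the core promoter letters TATAAA, the nuclear receptor hexamer AGGTCA, its variant GGGTCA and the E-box letters CACGTG.
Apoc4 (chr7:19681480-19681710, minus strand): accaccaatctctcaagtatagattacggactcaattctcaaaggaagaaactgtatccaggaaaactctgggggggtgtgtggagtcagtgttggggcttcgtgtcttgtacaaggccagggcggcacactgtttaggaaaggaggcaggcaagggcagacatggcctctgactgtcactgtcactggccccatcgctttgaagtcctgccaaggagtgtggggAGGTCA
Apoc2 (chr7:19677942-19678082, minus strand): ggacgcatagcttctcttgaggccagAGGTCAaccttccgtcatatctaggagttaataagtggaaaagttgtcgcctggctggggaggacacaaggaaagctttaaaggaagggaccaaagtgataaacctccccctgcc
Apoa2 (chr1:171224804-171225053, plus strand): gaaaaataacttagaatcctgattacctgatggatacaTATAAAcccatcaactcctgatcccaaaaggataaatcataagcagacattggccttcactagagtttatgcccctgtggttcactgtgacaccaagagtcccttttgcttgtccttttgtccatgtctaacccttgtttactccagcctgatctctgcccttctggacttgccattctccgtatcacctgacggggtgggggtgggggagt
Apoe (chr7:19699189-19699438, minus strand): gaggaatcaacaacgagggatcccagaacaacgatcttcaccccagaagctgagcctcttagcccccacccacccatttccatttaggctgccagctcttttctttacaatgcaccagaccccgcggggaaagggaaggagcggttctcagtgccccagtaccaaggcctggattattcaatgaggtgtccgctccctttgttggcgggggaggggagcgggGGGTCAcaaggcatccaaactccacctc
Apoa5 (chr9:46268358-46268607, plus strand): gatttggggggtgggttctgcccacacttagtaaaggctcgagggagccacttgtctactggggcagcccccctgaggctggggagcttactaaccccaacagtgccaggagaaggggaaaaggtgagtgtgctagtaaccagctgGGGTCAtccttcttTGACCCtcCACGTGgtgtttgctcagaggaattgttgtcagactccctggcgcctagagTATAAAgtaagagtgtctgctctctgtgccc
Apoc4 and Apoc2, neighbours that both fell, each hold 1 AGGTCA, which stands in 14.0% of 32851 mouse windows of 250 bases. Apoe and Apoa5, whose groups overlapped, hold GGGTCA, found in 11.6% of windows and also in a window of Apom, which was lower in all mice. The Apoa5 window further has 1 CACGTG (6.02% of windows) and 1 TATAAA (12.4% of windows). Apoa2's printed window precedes a start within the annotated gene and holds TATAAA towards the end far from that start. Another Apoa2 window holds AGGTCA, and a window of Apoe that is not printed holds TATAAA. CAAAGTCCA, a core of HNF4A sites, stands in 0.384% of windows and in none of the 12 windows of 8 of these genes, and Apoc1 and Apoc3 were not searched. The hexamer and its variant share 5 letters but cannot both match at 1 position, and a match is a description of the letters only.

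Of the structural genes of HDL, Apoa2 fell in TERT(High) cells, and Apoa1 and Apom were lower in all 3 mice without passing the test. Apoa2 (chromosome 1, 171221564 to 171226379) had 3576, 4027 and 4371 CPM in TERT(High) cells of mice 1, 2 and 3, against 5994, 6657 and 7529.9 CPM in TERT(Low) cells. Each group kept the same order of mice, and the ratio within a mouse was nearly constant, at 0.597, 0.605 and 0.580. Apoa2 fell by 0.75 on the log2 scale (SE 0.17, 95% interval -1.16 to -0.35, edgeR adjusted p = 0.0460), and without any 1 library its adjusted p lay between 0.0636 and 0.166. Apoa1, which activates the cholesterol-esterifying enzyme LCAT (chromosome 9, 46228630 to 46230469), had the highest mean CPM of the 10 in TERT(Low) cells, while in TERT(High) cells its mean of 9112 CPM was below the 9333 CPM of Apoe. It had 8600.4, 9988 and 8749 CPM in TERT(High) libraries and 12901, 14807 and 12033 CPM in TERT(Low) libraries. Every mouse had a lower value in its TERT(High) cells, with ratios of 0.667, 0.675 and 0.727. Its log2 fold change of -0.54 (SE 0.17, 95% interval -0.94 to -0.14) did not pass edgeR's threshold (adjusted p = 0.0881), and the DESeq2 adjusted p was 0.00187. Apom, a lipocalin that carries sphingosine 1-phosphate on HDL (chromosome 17, 35128997 to 35131801), had 326, 306 and 293 CPM in TERT(High) libraries and 426, 499 and 412 CPM in TERT(Low) libraries. The groups were separate, and the log2 fold change was -0.53 (SE 0.14, 95% interval -0.87 to -0.19, edgeR adjusted p = 0.0660).

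Apoa4, an apolipoprotein of chylomicrons and HDL that in the mouse responds to feeding and fasting (chromosome 9, 46240844 to 46243458), varied between mice in both groups. Its level was 232, 464 and 519 CPM in TERT(High) cells of mice 1, 2 and 3, against 330.1, 433 and 716 CPM in TERT(Low) cells. Mouse 1 was lowest and mouse 3 highest in both groups, and the groups overlapped. The log2 fold change of -0.28 (SE 0.39, 95% interval -1.22 to 0.65) did not pass edgeR's test (adjusted p = 0.672), and without the TERT(Low) library of mouse 3 it was 0.09. With the mouse as a block it was -0.29 (SE 0.17, edgeR adjusted p = 0.286). TERT(High) cells were lower in mice 1 and 3 and higher in mouse 2.

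Of the other regulators of lipoprotein lipase, Apoc3 was lower in TERT(High) cells of all 3 mice and Apoa5 was not. Apoc3, an inhibitor of lipolysis and of remnant clearance (chromosome 9, 46233050 to 46235636), had 584, 579 and 569 CPM in TERT(High) cells of mice 1, 2 and 3, against 751, 1008 and 876 CPM in TERT(Low) cells. The TERT(High) libraries were almost alike, with a coefficient of variation of 1.32%, where genes of at least 50 CPM had a median of 14.9%. The log2 fold change was -0.60 (SE 0.16, 95% interval -0.98 to -0.23, edgeR adjusted p = 0.0621, DESeq2 adjusted p = 0.00168). Apoa5, which promotes lipolysis and whose loss raises plasma triglyceride (chromosome 9, 46268608 to 46271921), had 387, 915 and 769 CPM in TERT(High) libraries and 542, 476 and 634 CPM in TERT(Low) libraries. TERT(High) cells were lower in mouse 1 and higher in mice 2 and 3, and the groups overlapped. The estimate of 0.33 (SE 0.32, 95% interval -0.44 to 1.09, edgeR adjusted p = 0.557) became -0.04 without mouse 2. The interval allows both a decrease to 0.738-fold and a rise to 2.13-fold.

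Apoc1 and Apoe lie side by side on chromosome 7 and had different profiles. Apoc1, which hinders receptor uptake of remnants (19689480 to 19692659), had 2375, 2693 and 2805 CPM in TERT(High) cells of mice 1, 2 and 3, against 3799.9, 3802 and 4898 CPM in TERT(Low) cells. The groups were well separated, and the log2 fold change was -0.67 (SE 0.17, 95% interval -1.08 to -0.25). Its edgeR adjusted p was 0.0622, and 0.0469 with the mouse as a block, where 3 of the 10 genes (Apoc4, Apoa2 and Apoc1) passed, against 4.3% of all genes that fell in that fit. Apoe, the ligand of the LDL receptor and of LRP1 (19696244 to 19701310), had 6051, 10884 and 11063 CPM in TERT(High) libraries and 8023, 8034 and 10835 CPM in TERT(Low) libraries. TERT(High) cells of mouse 1 had the lowest value of all and those of mice 2 and 3 the highest, so the groups overlapped entirely. The log2 fold change of 0.06 (SE 0.28, 95% interval -0.61 to 0.72, edgeR adjusted p = 0.913) turned negative without any 1 of 4 libraries, at -0.11 without TERT(High) mouse 2, -0.08 without TERT(High) mouse 3, -0.02 without TERT(Low) mouse 1 and -0.006 without TERT(Low) mouse 2. Macrophages also make Apoe, and their 11 markers summed to 21.8, 20.8 and 114 CPM in TERT(High) libraries of mice 1, 2 and 3, against 22.5, 17.7 and 53.9 CPM in TERT(Low) libraries. Mouse 3 had the highest Apoe level and the highest marker sum in both groups. The TERT(High) library of mouse 2 had 10884 CPM of Apoe with the lowest marker sum of its group. The part of macrophage RNA in the Apoe level was not tested. The TERT(High) library of mouse 1, lowest for Apoe, Apoa5 and Apoa4, is also the one with 247 CPM of stellate, 207 CPM of erythroid and 11.7 CPM of cholangiocyte markers, whose part was not tested. Without it edgeR called 1 of the 10 genes (Apoc4, adjusted p = 0.0285) and DESeq2 8, the 7 named above and Apoa5, the last higher (log2 fold change 0.57).

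Ratios of counts within a library compare neighbours without any scaling between libraries, but they keep any relation of level with transcript length. The genes of a pair can differ in length, with 432 nt for Apoc1, 1128 for Apoe, 1035 for Apoa1 and 2312 for Apoa5. Corrected for length and GC (below), log2 fold changes were 0.06 for Apoc1, 0.54 for Apoe, -0.01 for Apoa1 and 0.52 for Apoa5. The ratios themselves were not corrected. They were chosen after the levels had been seen, 10 ratios were computed, and the smallest p that an exact two-sided permutation test of 3 against 3 libraries allows is 0.1. That test permutes all 6 libraries freely and does not use the pairing by mouse. The ratio of Apoe to Apoc1 was 2.55, 4.04 and 3.94 in TERT(High) cells of mice 1, 2 and 3, against 2.11, 2.11 and 2.21 in TERT(Low) cells. All TERT(High) values lay above all TERT(Low) values (log2 difference 0.68, exact permutation p = 0.1, 0.25 adjusted over the 10 ratios). Apoc4 to Apoc1 ran the other way, with 0.276, 0.263 and 0.256 in TERT(High) and 0.314, 0.406 and 0.296 in TERT(Low) libraries (log2 difference -0.34, exact permutation p = 0.1, adjusted 0.25). On chromosome 9, Apoa5 to Apoa1 was 0.0450, 0.0916 and 0.0879 in TERT(High) and 0.0420, 0.0321 and 0.0527 in TERT(Low) libraries. It was higher in TERT(High) cells of 3 of 3 mice, but the groups overlapped through mouse 1 (log2 difference 0.78, exact permutation p = 0.2, adjusted 0.333). Apoc3 to Apoa1, by contrast, averaged 0.0637 ± 0.00513 in TERT(High) and 0.0664 ± 0.00743 in TERT(Low) libraries (SD, n = 3 each), a log2 difference of -0.06 (exact permutation p = 0.5, adjusted 0.625). Apoa4 to Apoa1 and Apoc2 to Apoc1 differed by 0.25 and -0.12 on the log2 scale (exact permutation p = 0.8 for both). For Apoa1 to Apoa2 the log2 difference was 0.21 (exact permutation p = 0.3), higher in 3 of 3 mice, and for Apoc2 to Apoc3 it was -0.18 (exact permutation p = 0.2), lower in 3 of 3 mice.

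**Figure D2:**
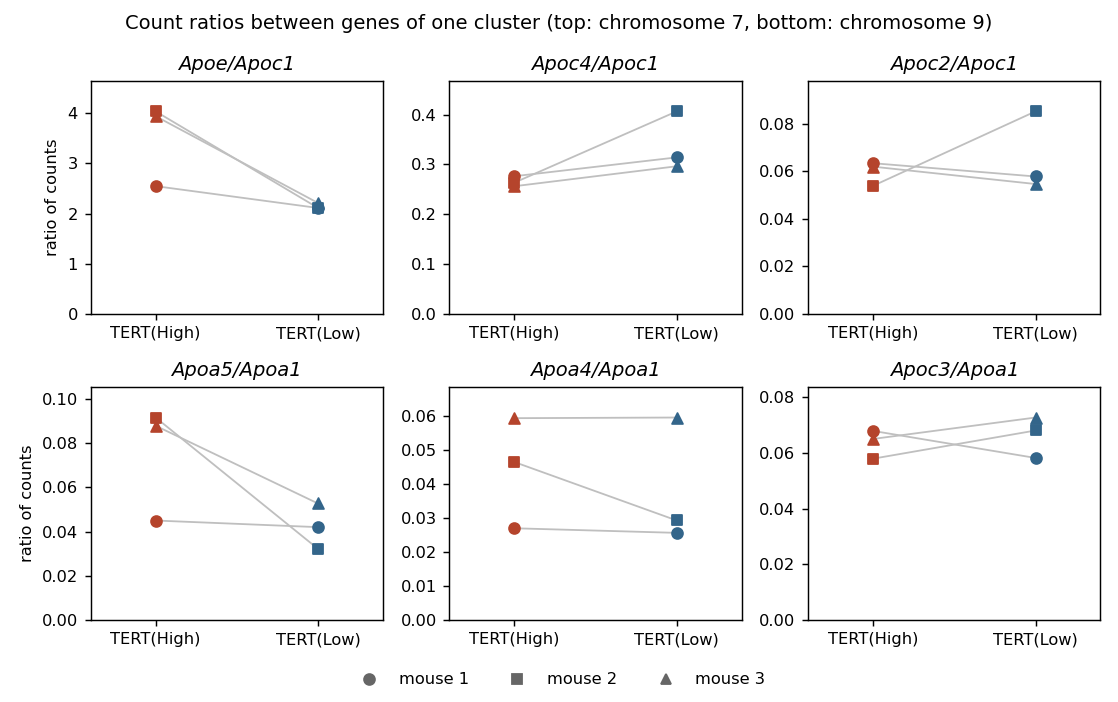
Ratio of the counts of 2 genes of a cluster within a library (y axis, no unit) in TERT(High) cells (left) and TERT(Low) cells (right), with grey lines joining the libraries of a mouse, for the chromosome 7 cluster (top) and the chromosome 9 cluster (bottom). Apoe to Apoc1 lies at 2.55 to 4.04 in TERT(High) and 2.11 to 2.21 in TERT(Low) cells, while Apoc3 to Apoa1 overlaps between the groups. The ratios are not corrected for transcript length.

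The profiles of the genes over the 6 libraries fell in 2 sets, which were formed after the levels had been seen, so the values below are a description. Among the 7 genes that were lower in every mouse the 21 pairwise Pearson correlations of log2 CPM over 6 libraries lay between 0.77 and 0.98, with a median of 0.93. Apoe, Apoa4 and Apoa5 correlated at 0.66 to 0.92 with each other, and pairs across the 2 sets at -0.48 to 0.61 with a median of 0.03. Each cluster held both kinds, with Apoe set apart from Apoc1, Apoc4 and Apoc2 on chromosome 7, and Apoa4 and Apoa5 from Apoa1 and Apoc3 on chromosome 9. All 6 libraries come from 3 mice and share the group difference by which the first set was formed.

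**Figure D3:**
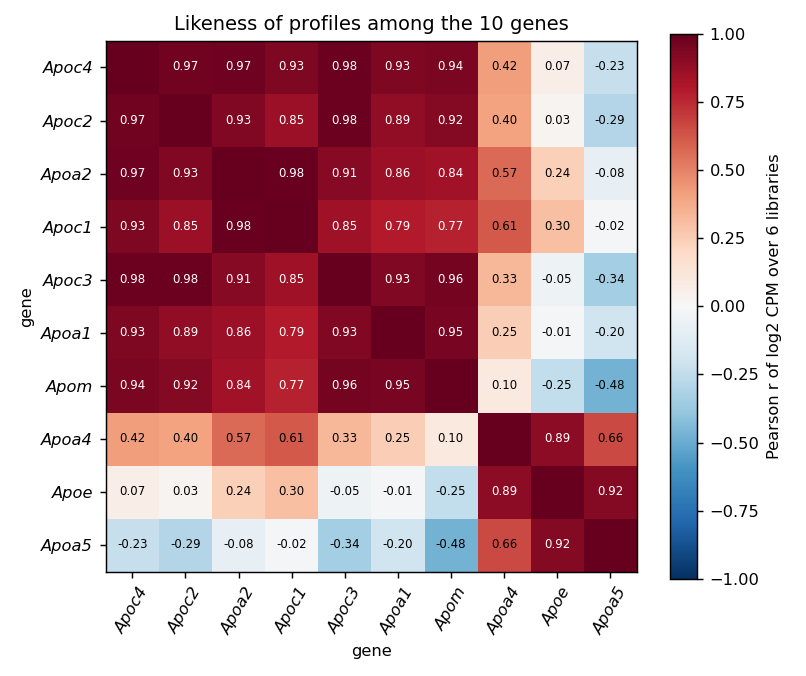
Pearson correlation of log2 CPM between genes over the 6 libraries (colour and number in each cell, from -1 in blue to 1 in red). The 7 genes from Apoc4 to Apom form a block of 0.77 to 0.98, and Apoa4, Apoe and Apoa5 a second of 0.66 to 0.92.

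Transcript length went with the fold change across the whole transcriptome, and these genes are short. Length was known for 12546 of the tested genes (the transcript with the longest coding sequence), and over them the log2 fold change and length had a Spearman correlation of 0.48 across genes, which are not independent replicates. The 10 genes had a median length of 861 nt, against 2867 nt for all tested genes. Apoc1, Apoa2, Apoc4, Apoc2, Apoc3, Apom, Apoa1 and Apoe (432 to 1128 nt) stood in the shortest length decile (216 to 1168 nt), whose median log2 fold change was -0.55 and in which 88.8% of 1255 genes had a negative value and 22.9% fell. Set against that median, Apoc4 was 0.46 lower on the log2 scale and below all but 3.43% of the genes of its decile. Apoc2 was 0.24 and Apoa2 0.20 lower, with 18.9% and 23.4% of the decile below them. Apoc1 and Apoc3 differed from the median by -0.12 and -0.06, and Apoa1 and Apom by 0.01 and 0.02. Apoe stood 0.61 above it, higher than 91.1% of the decile. Apoa5 (2312 nt) was 0.41 above the median of its own decile, higher than 81.5% of it, and Apoa4 (1815 nt) differed by -0.08.

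**Figure D4:**
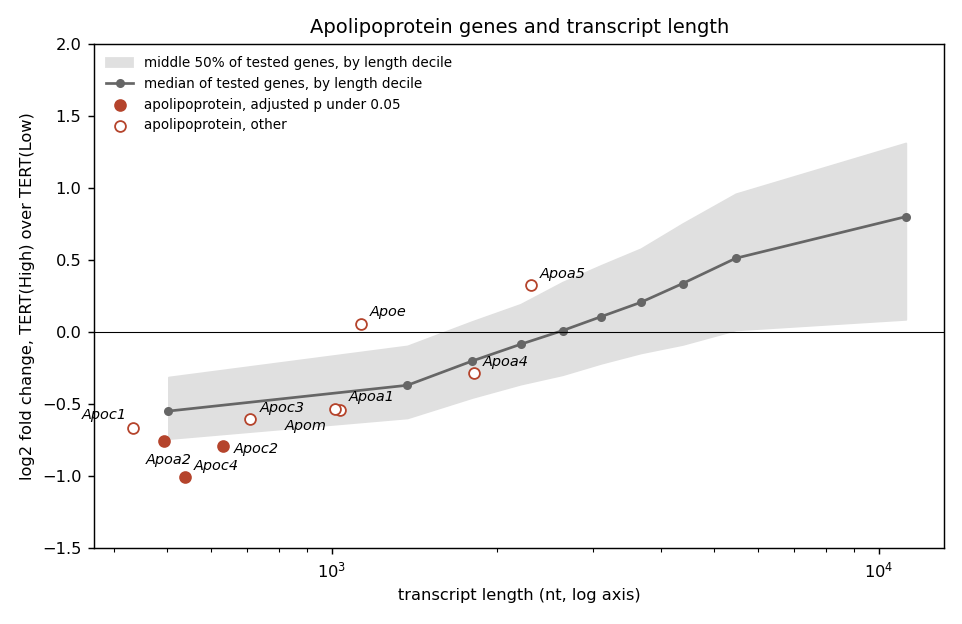
Log2 fold change of TERT(High) over TERT(Low) (y axis) against transcript length (x axis, log scale, nt) for the 10 genes (red, filled where edgeR's adjusted p was under 0.05), with the median and the middle 50% of all tested genes in each length decile (grey). Most of the genes lie along the grey line, Apoc4 lies 0.46 below the median of its decile, and Apoe and Apoa5 lie 0.61 and 0.41 above theirs.

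A correction for length and GC content in each library brought most estimates close to 0. It was fitted to each library's deviation from the mean of these same libraries. A group difference that genes of like length and GC share is thus taken out by construction. Values near 0 for genes near the median of their length decile follow from that. The corrected log2 fold changes were -0.31 for Apoc4, -0.11 for Apoc2, -0.06 for Apoa2, 0.06 for Apoc1, 0.04 for Apoc3, -0.01 for Apoa1, 0.01 for Apoa4 and next to 0 for Apom. Apoa5 and Apoe were at 0.52 and 0.54, so Apoc4 and Apoe marked the ends of the range, where Apoc4 and Apoa5 (0.33) did before the correction. None of the 10 passed edgeR's test after the correction (0 at an unadjusted p under 0.05), the lowest values being those of Apoc4 (unadjusted p = 0.0685, adjusted 0.336) and Apoe (unadjusted p = 0.0893, adjusted 0.375). Over all genes 0 passed it then, though 1510 had an unadjusted p under 0.05 with a positive and 596 with a negative log2 fold change. The slope of log2 level on log2 length was 0.0895, 0.161 and 0.218 in TERT(High) libraries of mice 1, 2 and 3, against -0.0824, -0.190 and -0.196 in TERT(Low) libraries, each set against the mean of all libraries. Setting them against that mean makes the group means of the slopes opposite in sign, so a sign says nothing about either population alone. In every mouse the slope was higher in the TERT(High) library. Length and the sorted population cannot be told apart as the source of that difference.

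**Figure D5:**
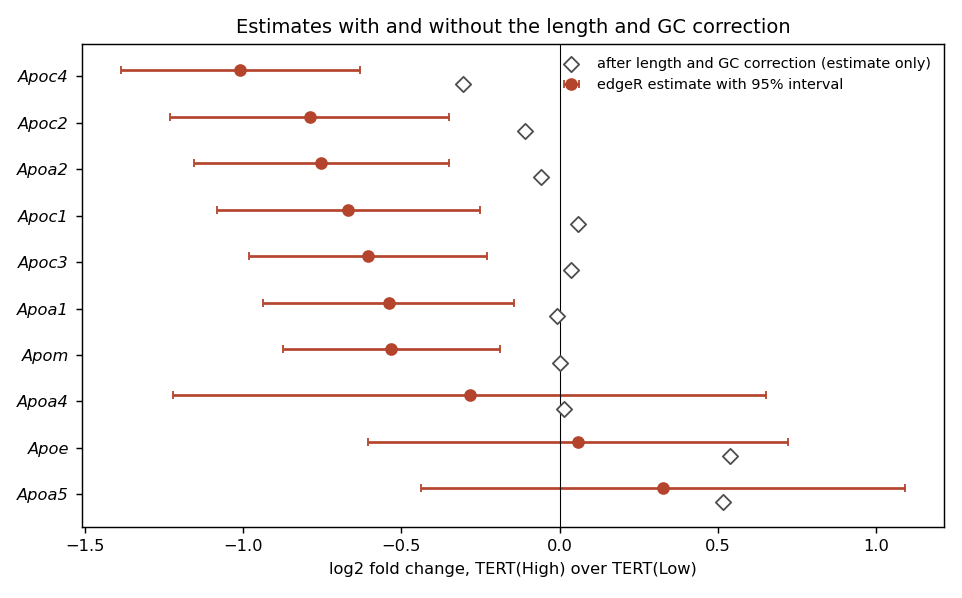
Log2 fold change of TERT(High) over TERT(Low) for each gene (x axis) by edgeR with its 95% interval (red) and after the length and GC correction (open diamonds, estimate only). The corrected values of 7 genes lie between -0.11 and 0.06, Apoc4 is at -0.31, and Apoe and Apoa5 are at 0.54 and 0.52.

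Of 77 listed genes of the wider lipoprotein pathway 75 were tested, and 4 rose and 0 fell by edgeR, where 4.43% of all genes rose and 3.71% fell, so the share that rose is near the background. There were 13 genes up and 7 down where p was left unadjusted (under 0.05), 11 higher and 6 lower by DESeq2, 5 higher and 3 lower by edgeR with upper-quartile scaling, and the median log2 fold change was -0.10. Apob, the large non-exchangeable protein that each very-low-density particle carries, had 2177, 2255 and 2830 CPM in TERT(High) cells of mice 1, 2 and 3, against 368, 255 and 433 CPM in TERT(Low) cells. It rose by 2.78 on the log2 scale (SE 0.25, adjusted p = 0.0241 by edgeR), with a transcript of 13934 nt. The ratio of Apob to Apoa1 counts was 0.253, 0.226 and 0.323 in TERT(High) and 0.0285, 0.0172 and 0.0360 in TERT(Low) libraries (log2 difference 3.34, exact permutation p = 0.1, adjusted 0.25), and that of Apob to Apoe had a log2 difference of 2.79. After the length and GC correction Apob had a log2 fold change of 1.97 (edgeR adjusted p = 0.0638). The list of 10 assembly genes, Apob among them, had a median of -0.46, and of -0.16 after the length and GC correction. At an unadjusted edgeR p under 0.05, 4 of the 10 were lower and 1 higher, with the same counts by DESeq2. Vmp1, needed for lipoprotein release from the endoplasmic reticulum membrane, was at -0.65 without the correction (edgeR adjusted p = 0.0622). Sar1b, a GTPase of the secretory coat, was at -0.52 (edgeR adjusted p = 0.0913). Mttp, which loads lipid onto APOB, was at 0.20 (edgeR adjusted p = 0.608).

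Abca1, the transporter that loads cholesterol and phospholipid onto APOA1, rose to 105, 93.8 and 97.0 CPM in TERT(High) libraries, against 37.9, 50.4 and 21.7 CPM in TERT(Low) libraries. The groups did not overlap (log2 fold change 1.43, SE 0.30, edgeR adjusted p = 0.0405), and it was the only 1 of 12 HDL remodelling genes past the threshold, with a list median of 0.06. After the length and GC correction Abca1, with a transcript of 10262 nt, was at 0.80 (edgeR adjusted p = 0.350). Lcat, whose enzyme APOA1 activates, averaged 375 ± 53.3 CPM in TERT(High) libraries and 466 ± 122 CPM in TERT(Low) cells (SD, n = 3 each). Among 6 genes that control lipoprotein lipase none passed edgeR's test (2 higher at an unadjusted p under 0.05 and 2 by DESeq2, median 0.75). Lmf1, a lipase maturation factor, averaged 63.3 ± 2.61 CPM in TERT(High) libraries and 76.6 ± 6.79 CPM in TERT(Low) libraries (SD, n = 3 each; edgeR adjusted p = 0.232). Of 10 uptake genes none passed (1 higher at an unadjusted p under 0.05 and 1 by DESeq2, median -0.16). Lrp1, a receptor for APOE, had 116, 631 and 419.6 CPM in TERT(High) libraries and 91.1, 117 and 51.4 CPM in TERT(Low) libraries, with overlapping groups, since the TERT(High) library of mouse 1 was low (log2 fold change 2.17, SE 0.62, adjusted p = 0.0765). Sdc1, a proteoglycan that binds remnants, averaged 322 ± 125 CPM in TERT(High) libraries and 496 ± 253 CPM in TERT(Low) cells (adjusted p = 0.391).

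Transcription factors known to act on apolipoprotein genes numbered 27 tested, of which Rora and Sp1 rose, against 4.43% of all genes, and 0 fell (0 at an unadjusted p under 0.05 and 0 by DESeq2). At an unadjusted p under 0.05 8 were higher, as were 2164 of all 13288 genes, and 6 by DESeq2. For 8 of the 27 genes the TERT(High) libraries lay wholly above, against 17.5% of all genes, and the median was 0.21. Rora, a nuclear receptor that activates Apoc3, averaged 29.5 ± 6.63 CPM in TERT(High) libraries and 12.0 ± 3.03 CPM in TERT(Low) cells (log2 fold change 1.30, SE 0.26, edgeR adjusted p = 0.0376). Sp1, a general activator that binds GC-rich promoters, averaged 19.96 ± 2.85 CPM in TERT(High) libraries and 11.5 ± 1.64 CPM in TERT(Low) cells (log2 fold change 0.79, SE 0.18, adjusted p = 0.0465). After the length and GC correction they were at 0.39 and 0.15 (adjusted p = 0.610 and 0.817), and without any 1 library Rora did not pass, while Sp1 passed only without that of TERT(High) mouse 1 (adjusted p = 0.0481). Hnf4a, the nuclear receptor that drives much of hepatocyte apolipoprotein expression, averaged 500.03 ± 179 CPM in TERT(High) libraries and 369.6 ± 64.0 CPM in TERT(Low) cells (log2 fold change 0.44, SE 0.30, adjusted p = 0.390). Creb3l3, which in the mouse activates Apoa4, Apoa5 and Apoc2, averaged 147 ± 18.1 CPM in TERT(High) libraries and 170.2 ± 27.0 CPM in TERT(Low) cells (log2 fold change -0.21, SE 0.17, adjusted p = 0.486).

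Of 22 tested genes within 50 kb of the apolipoprotein genes, 0 rose (1 at an unadjusted p under 0.05 and 1 by DESeq2) and 3 fell, against 3.71% of all genes. Among the 3 are Gm44805, the model that overlaps Apoc2 and Apoc4, and Abhd16a near Apom. Abhd16a, a lipid hydrolase, averaged 24.0 ± 1.55 CPM in TERT(High) libraries and 38.1 ± 1.38 CPM in TERT(Low) libraries (SD, n = 3 each; log2 fold change -0.67, SE 0.13, edgeR adjusted p = 0.0348). Beside the chromosome 7 cluster, Tomm40 was at -0.19, Nectin2 at 0.16 and Clptm1 at -0.33 on the log2 scale (adjusted p = 0.474, 0.644 and 0.221). Beside the chromosome 9 cluster, Sik3 was at 0.88 and Zpr1 at 0.19 (adjusted p = 0.190 and 0.673). None of these 5 flanking genes passed the threshold.

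The 5 genes with a profile nearest to the mean of the 10, among 1858 genes of at least 50 CPM, were Kdm6b, Mrps7, Echs1, Gchfr and Gstz1, with Pearson correlations of 0.996, 0.996, 0.993, 0.991 and 0.991 over the 6 libraries. Their log2 fold changes lay between -0.24 for Kdm6b and -0.72 for Gchfr, and none passed edgeR's test (adjusted p from 0.0806 to 0.265). Kdm6b, with a transcript of 6654 nt, averaged 59.5 ± 3.52 CPM in TERT(High) libraries and 70.5 ± 3.37 CPM in TERT(Low) cells.

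The authors' deposited table gives log2 fold changes of -0.997 for Apoc4, -0.77 for Apoc2, -0.76 for Apoa2, -0.66 for Apoc1, -0.60 for Apoc3, -0.54 for Apoa1 and -0.53 for Apom, with adjusted p from 2.35e-08 to 0.00605. The authors' deposited table has Apoa4 at -0.30, Apoa5 at 0.21 and Apoe at 0.01, with adjusted p of 0.238, 0.559 and 0.975. These values and the edgeR estimates come from the same libraries and are not independent of each other.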

How the data were processed

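Per the labels' protocols, sorted hepatocytes gave RNA by an RNeasy micro kit, and a KAPA stranded kit turned it into mRNA libraries. Trim Galore 0.4.0, TopHat2 2.0.13, DESeq2 (no version) and the genome mm10 are named in the submitters' processing notes. How reads were counted (tool, strand setting, annotation) is not given in the sources used here, so reads of overlapping and antisense genes (annotated over Apoa4 and Apoa5, for example) are uncertain. One deposited table holds, per the file headers, unscaled counts of each gene in 6 libraries of 53.6 to 76.2 (1e6 counts) each. In the other table the signal deposited by the authors is baseMean, the mean scaled count, the log2 fold change and its standard error compare TERT(High) with TERT(Low), the fold is its linear ratio, the score is the Wald statistic, and the p-value columns hold p and adjusted p from DESeq2.

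Genes were tested with edgeR 4.0.16 under R 4.3.3 (filterByExpr, TMM, robust quasi-likelihood, group alone, Benjamini-Hochberg adjusted p under 0.05), checked on simulated data. The common biological coefficient of variation was 40.7%. SE is the absolute log2 fold change over the square root of F. Intervals use the test's degrees of freedom. Alternatives changed scaling, filter, tool (DESeq2 1.42.0, limma-voom 3.58.1), threshold and libraries, or added an offset for length and GC (splines of 4 degrees of freedom each). Ratios used exact two-sided permutation tests. The labels give both libraries of a number to the same mouse, and their deviations from the group means correlated at 0.13, 0.591 and 0.435 in mice 1, 2 and 3. A block for the mouse gave a coefficient of variation of 29.64%. RefSeq (GRCm38.p6) matched 99.7% of genes by Entrez number, and GENCODE M21 gave a length for 94.4% of tested genes. Tables and plots used pandas 2.3.3, numpy 2.4.6 and matplotlib 3.10.9 with Python 3.11.15.

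The genes and lists were chosen with earlier results of these data known. Named are the 10 genes, Apob, up to 4 genes past the threshold of each pathway list (or its 2 most abundant), tested genes within 50 kb and the 5 nearest profiles. Not all genes that this rule names are reported here one by one. Chosen after the values were seen were the ratios, the genes whose windows are printed (of each gene the window with the longest exon-free run), the motifs (after reading the windows), the sets of profiles, DESeq2 with a library left out, the alternatives for length, and the naming of Col1a1, Col1a2, Vmp1, Sar1b, Mttp, Lcat, Hnf4a and Creb3l3.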

Additional observations from a re-analysis of the deposited data

How the results depend on the processing

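edgeR called 1081 genes, 3 of the 10 apolipoprotein genes and 4 of 75 pathway genes. DESeq2 called 2820, 7 and 17, the 0.10 threshold 2559, 7 and 12, and the length and GC correction 0, 0 and 0 (unadjusted p under 0.05 for 1510 genes upwards and 596 downwards). With library totals alone 647 genes and 1 apolipoprotein gene passed, without a filter 1 of the 10, with upper-quartile scaling 5 of the 10 and 8 pathway genes, and with a filter of 5 CPM 8 pathway genes. Calls were higher in TERT(High) cells in 54.4% of cases by TMM, 97.1% by library totals and 43.2% by upper quartiles. With the mouse as a replicate block 1292 genes, 3 of the 10 and 5 pathway genes passed, Apoc1 replacing Apoc2, and with block and length and GC correction 546 and 0 of the 10. The cause of these shifts was not tested.

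Without 1 library or 1 mouse edgeR called 0 to 1650 genes, 0 to 1 of the 10 and 0 to 5 pathway genes, and DESeq2 without 1 library 1623 to 3398, 7 to 8 and 8 to 22. Apoc4 passed in 10 of 20 planned settings, Apoa2 in 7, Apoc2 in 5, Apoc3 in 3, Apoc1 and Apom in 2, Apoa1 in 1, and Apoa4, Apoa5 and Apoe in 0. The median of the 10 genes, -0.57, was -0.50 with the 5 CPM filter, -0.42 with library totals, 0.0065 after the length and GC correction and 0.018 with the block added. Without 1 library or mouse it was -0.64 to -0.46 by edgeR and -0.66 to -0.50 by DESeq2. The median distance to the length decile, -0.07, was 0.024 after the correction, 0.021 with the block added and -0.15 to -0.021 with libraries left out. The share of counts was 0.607 percentage points lower in TERT(High) libraries by means (a difference of -0.607), -0.925 on TMM-scaled sizes and -0.779 to -0.444 with libraries left out.

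The sign of uncalled estimates turned in these cases. With libraries or mice left out Apoe lay between -0.15 (without mouse 2) and 0.24, Apoa4 between -0.55 and 0.086 (without TERT(Low) mouse 3), Apoa5 between -0.036 (without mouse 2) and 0.60, and Nectin2 between -0.025 (without TERT(High) mouse 2) and 0.34. After the length and GC correction, without and with the block, Apoa4 was at 0.013 and 0.039, Apoc1 at 0.059 and 0.068, Apoc3 at 0.037 and 0.036, Lmf1 at 0.048 and 0.048 and Tomm40 at 0.18 and 0.17. With 3 mice, intervals are wide where mice differ, as for Apoa4, Apoa5 and Apoe.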

Other observations

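Of 10 other lipid-binding plasma proteins listed with the pathway, 0 rose and 0 fell by edgeR (3 lower and 0 higher where p was left unadjusted, 2 lower by DESeq2), with a median log2 fold change of -0.43. Rbp4, the carrier of retinol, had 2643, 2442 and 2523 CPM in TERT(High) cells of mice 1, 2 and 3, against 3363, 4385 and 3815 CPM in TERT(Low) cells, and Apoh, a phospholipid-binding plasma protein, had 2547, 2317 and 2243 CPM in TERT(High) libraries and 3359, 3877 and 3288 CPM in TERT(Low) libraries. In both genes the groups did not overlap (log2 fold changes -0.60 and -0.57, edgeR adjusted p = 0.0646 and 0.0651), and their transcripts of 1161 and 1190 nt are of the length of Apoa1 and Apoe. Saa1, an acute-phase apolipoprotein of HDL, went with the mouse, with 56.0, 1547 and 499 CPM in TERT(High) libraries and 66.8, 1042 and 1139 CPM in TERT(Low) libraries of mice 1, 2 and 3 (log2 fold change -0.10, SE 1.26, adjusted p = 0.970). Saa2 had the same shape, with 24.8, 673 and 216 CPM in TERT(High) libraries and 26.0, 515 and 477 CPM in TERT(Low) libraries, so mouse 1 was low for both genes in both populations. The Saa paralogs are close in sequence, and the division of reads between them is uncertain. Saa1 and Saa2 per library were looked up after their values had been seen.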
